A study of Homo sapiens with 3 samples.

Results

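The Notch genes described here are 10 of the 23131 rows of an RNA-seq table from HCT-116 cells, taken by exact gene symbol: the receptors *NOTCH1*, *NOTCH2* and *NOTCH3*, the receptor-modifying enzyme *LFNG*, the ligands *JAG1*, *JAG2* and *DLL1*, and the targets *HES1*, *HES4* and *HEY1*. HCT-116 is a human colon carcinoma line whose genotype is given as APC wild-type, CTNNB1ΔSer45, the second being a β-catenin allele that resists degradation. All cells carried this genotype and went through 2 transfections on consecutive days, with harvest 48 hours after the second. One library came from cells that received pooled anti-*APC* siRNA. The other came from cells that received no siRNA, titled untransfected and described as given reagent only (mock). A scrambled siRNA library also belongs to the series and was not analysed here, so an effect of siRNA delivery and an effect of *APC* silencing cannot be told apart. With 1 library per condition there is no replicate check, and no *p*-value is given for any difference.

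Notch receptors are single-pass membrane proteins that are activated by ligands on neighboring cells. Ligand binding exposes the receptor to ADAM proteases and then to γ-secretase, and the released intracellular domain enters the nucleus, binds RBPJ and MAML coactivators, and activates *HES* and *HEY* genes, which encode basic helix-loop-helix repressors. In the intestine, Notch signaling maintains crypt progenitors and favors absorptive over secretory fates through HES1, which represses the secretory factor gene *ATOH1*. *JAG1* has been described as a canonical WNT target in colon cancer cells, and *APC* is a negative regulator of WNT signaling.

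The promoters of *HES1* and *HES4* are shown because they carry the RBPJ core motif through which the pathway is read, and that of *JAG1* is shown because this gene had the largest ratio among the well-expressed Notch genes. Windows of 250 bases before and 50 bases after the transcription start were taken from RefSeq (GRCh38.p14) and were found for 8 of the 10 genes, in 9 windows. The stretches below were placed on GRCh37 by exact match. Capitals mark the RBPJ core TGGGAA, which was searched on both strands.
*HES1*, chr3:193853827-193853886, plus strand: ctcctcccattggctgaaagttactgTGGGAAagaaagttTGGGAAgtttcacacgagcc
*HES4*, chr1:935528-935587, minus strand: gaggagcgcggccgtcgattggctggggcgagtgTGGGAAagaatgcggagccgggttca
*JAG1*, chr20:10654648-10654897, minus strand: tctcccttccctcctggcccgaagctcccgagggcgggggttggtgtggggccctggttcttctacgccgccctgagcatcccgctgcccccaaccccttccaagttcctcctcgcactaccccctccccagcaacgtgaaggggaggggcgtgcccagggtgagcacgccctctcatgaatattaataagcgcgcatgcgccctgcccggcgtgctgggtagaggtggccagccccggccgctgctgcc

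*HES1* held the RBPJ core at 84 and 70 bases before its start, and *HES4* held it at 76 bases before its start, all on the strand of the gene. The core was also found in both windows of *LFNG*, so 4 of the 9 windows held it, against 24.0% of 35116 promoter windows of the same length. The TCF core CTTTGA, the AP-1 motif TGANTCA and the HES E-box CACGTG, each searched on both strands, were found in none of the 9 windows. Over all windows these were found in 12.9%, 7.71% and 7.26%. The authors wrote the TCF motif as WWCAAAG, where W is A or T, and that form was not searched. The HES N-box CACNAG was found in 5 of the 9 windows, against 38.0% of all windows. In *HES1* it was matched at 165, 132 and 58 bases before the start and once 15 bases after it. The *JAG1* window held none of the 5 motifs. These letters are matches in reference sequence and not measured binding sites.

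The targeted gene was measured first. FPKM is a read count scaled by transcript length and by the size of the library. *APC* was at 9.15 FPKM in untransfected cells against 3.43 FPKM after silencing, so its level was 62.5% lower. Among the 12063 genes with a mean of at least 1 FPKM over both libraries, the median log2 ratio of anti-*APC* over untransfected was -0.05, and the 5th and 95th percentiles were -0.65 and 0.39. Of 2114 ratios of genes under 0.2 FPKM, 61.8% matched a ratio of whole reads once the value of a single read in each library was allowed for, which gave estimated depths of 24700000 reads (untransfected) and 22600000 reads (anti-*APC*). The read numbers given below are estimates from this depth and the length of each gene's canonical transcript. Of 8 colon epithelial markers, 6 had at least 1 FPKM, with *KRT8* the highest at 588 and 478 FPKM without and with anti-*APC* siRNA, whereas *VIL1* and *CDX1* were listed at 0 in untransfected cells and at 0.0313 and 0.0253 FPKM with anti-*APC* siRNA. The 6 had a median log2 ratio of -0.35, *CDH1* was past 1.5-fold lower (19.0 FPKM in untransfected cells against 12.1 FPKM), and the list summed to 1649 and 1294 FPKM. Of 10 markers of other cell types, *COL1A1* and *ACTA2* were above 1 FPKM, and that list summed to 5.20 FPKM in untransfected cells and 5.15 FPKM after silencing. The part of these differences in the results below was not tested.

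Among the ligands, *JAG1* was about 3-fold higher with anti-*APC* siRNA, whereas *JAG2* was slightly lower and *DLL1* had too few reads to tell. *JAG1* (chr20:10618332-10654647 of GRCh37, minus strand, 26 exons) encodes a Serrate-type ligand with a DSL receptor-binding domain. It had 8.79 FPKM in untransfected cells against 27.1 FPKM after *APC* silencing, or about 1291 and 3642 reads. The ratio was 3.09, a log2 ratio of 1.63 with a 95% counting interval of 1.54 to 1.72 (exact Clopper-Pearson interval on the share of reads). Intervals here cover counting error only and take no account of variation between cultures. Of the 12063 genes, 31 including *JAG1* had a ratio at least this high, and among 4582 other genes with a mean within 2-fold of its own, 6 had one at least as high. In RNA from a whole culture, more cells with *JAG1* transcript and more transcript per cell cannot be told apart. An unnamed antisense gene covers 5.15% of the *JAG1* transcript on the opposite strand, and whether read assignment used strand is not given in the sources used here.

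*JAG2*, the paralog of *JAG1* (chr14:105607332-105635113, minus strand), had 19.9 FPKM in untransfected cells against 16.5 FPKM after *APC* silencing. This is a log2 ratio of -0.27 with a counting interval of -0.35 to -0.19, so the difference is larger than counting error. It lies within the 5th to 95th percentiles of genes at a similar level (-0.50 to 0.33), and 17.3% of those genes were at least as far below 0. An unnamed gene on the same strand shares 8.12% of the *JAG2* transcript. *DLL1*, a Delta-type ligand (chr6:170591294-170600166, minus strand), had 1.07 FPKM in untransfected cells against 0.817 FPKM after *APC* silencing, from about 100 and 70 reads. Its log2 ratio of -0.39 had a counting interval of -0.85 to 0.07, so a change of *DLL1* was not detectable at this depth. *FAM120B* shares 9.79% of the *DLL1* transcript on the opposite strand. It was at 13.4 and 17.0 FPKM with and without anti-*APC* siRNA, which is well above *DLL1* itself. Its log2 ratio was -0.34, beside -0.39 for *DLL1*. If reads were assigned without strand, the *DLL1* values may include reads of *FAM120B*. How many was not tested.

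**Figure D1:**
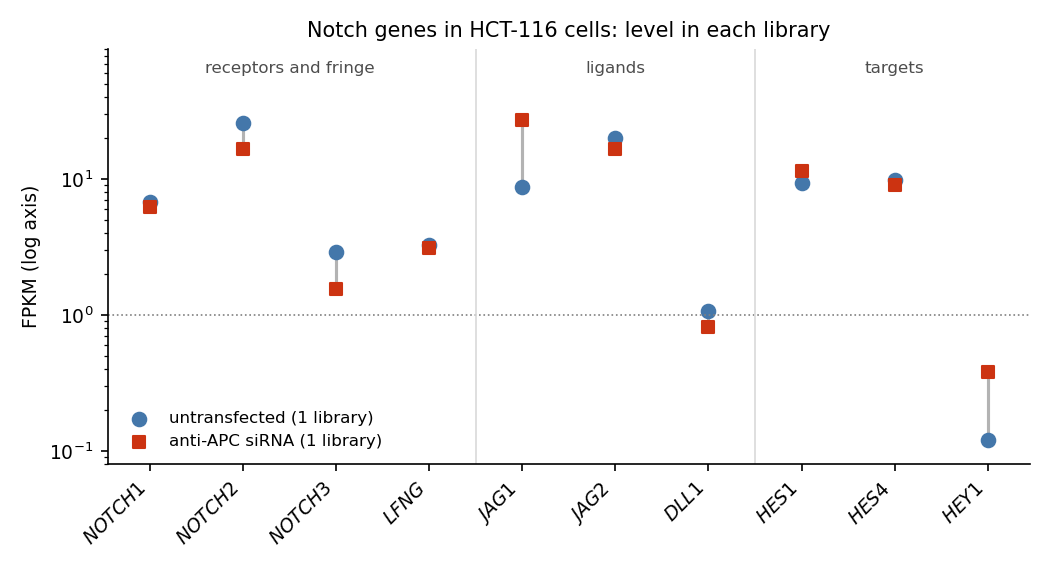
FPKM (log axis) of the 10 Notch genes in the untransfected library (blue circles) and the anti-*APC* library (red squares), 1 library each, with a dotted line at 1 FPKM. *JAG1* moved from 8.79 to 27.1 FPKM, *NOTCH2* from 25.8 to 16.5 FPKM, and *NOTCH3* from 2.89 to 1.57 FPKM.

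Among the receptors, *NOTCH2* and *NOTCH3* were lower with anti-*APC* siRNA and *NOTCH1* was nearly level. *NOTCH2* (chr1:120454176-120612276, minus strand, 34 exons), the most abundant receptor transcript in both libraries, had 25.8 FPKM in untransfected cells against 16.5 FPKM after *APC* silencing, or about 7293 and 4262 reads. Its level was 1.56-fold lower, a log2 ratio of -0.64 with a counting interval of -0.70 to -0.59. Among 4455 other genes at a similar level, 2.42% were at least as far below 0. *NOTCH3* (chr19:15269849-15311806, minus strand, 33 exons) had 2.89 FPKM in untransfected cells against 1.57 FPKM after *APC* silencing, or about 620 and 307 reads. It was 45.8% lower, a log2 ratio of -0.88 with a counting interval of -1.08 to -0.68. Ratios of this size were more frequent at its lower level, where 5.12% of 2440 other genes were at least as far below 0.

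*NOTCH1* (chr9:139388885-139440500, minus strand, 34 exons) had 6.82 FPKM in untransfected cells against 6.22 FPKM after *APC* silencing. Its log2 ratio of -0.13 had a counting interval of -0.24 to -0.03, and 43.3% of 3997 other genes at a similar level were at least as far below 0. The *NOTCH2* value may depend on how reads were divided with *NOTCH2NL*, a partial copy of *NOTCH2*, since 8.18% of the *NOTCH2* transcript lies in stretches of 36 bases that are identical in a *NOTCH2NL* gene. *NOTCH2NL* had 4.99 FPKM in untransfected cells against 4.62 FPKM after *APC* silencing, a log2 ratio of -0.11. With all reads of both genes added, which was tried once the data had been seen, the log2 ratio was -0.57 in place of -0.64, just short of a 1.5-fold difference. Only 11.2% of the transcript of *NOTCH2NLA*, a *NOTCH2NL* gene, is shared with *NOTCH2*. The sum therefore takes in reads from outside the shared stretches and overstates what could have been exchanged. Adding the shared part alone was not tried. *LFNG* (chr7:2559408-2568063, plus strand), which encodes a fringe glycosyltransferase that modifies O-fucose on the receptors and changes their response to Delta and Jagged ligands, had 3.297 FPKM in untransfected cells against 3.13 FPKM after *APC* silencing. Its log2 ratio was -0.07 with a counting interval of -0.37 to 0.23, so a change within this range was not detectable.

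**Figure D2:**
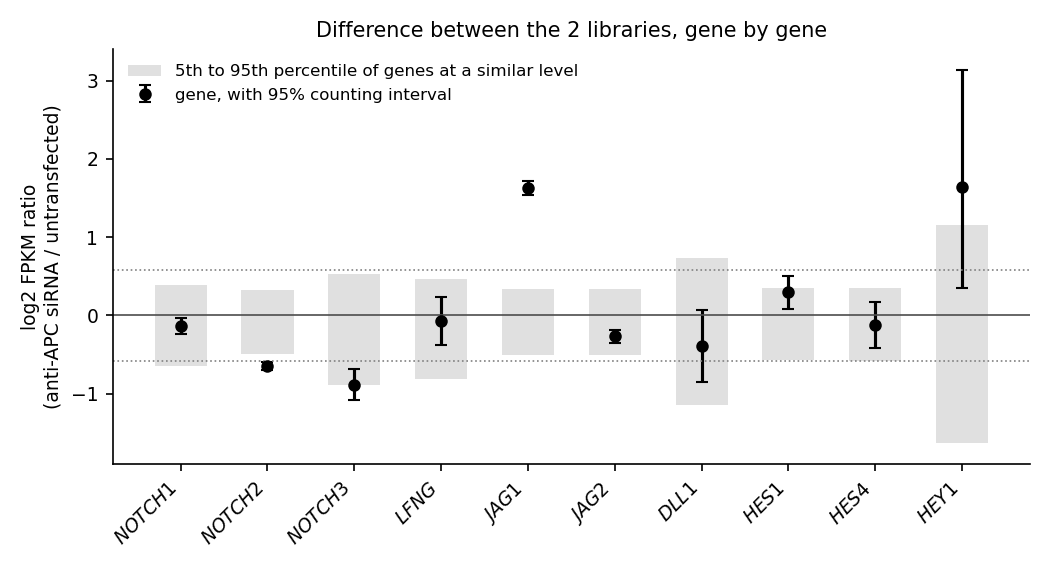
Log2 ratio of FPKM (anti-*APC* over untransfected) of each Notch gene (points) with its 95% counting interval (bars), over the 5th to 95th percentiles of genes whose mean level is within 2-fold (gray boxes). Dotted lines mark 1.5-fold. *JAG1* at 1.63 lies far above its box, *NOTCH2* at -0.64 lies below its box, and *NOTCH3* at -0.88 lies at the lower edge of its box. *HEY1* at 1.65 also lies above its box, from 20 and 7 reads with and without anti-*APC* siRNA.

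Of the targets, *HES1* was slightly higher, *HES4* was level within counting error, and *HEY1* was higher from very few reads. *HES1* (chr3:193853937-193856521, plus strand) is the main intestinal effector of Notch. The RBPJ core matches printed above for *HES1* lie on the same strand, and whether they act as a pair was not tested. *HES1* had 9.35 FPKM in untransfected cells against 11.5 FPKM after *APC* silencing, or about 364 and 408 reads. The ratio was 1.23, a log2 ratio of 0.29 with a counting interval of 0.09 to 0.50, and 7.39% of 4535 other genes at a similar level had a log2 ratio at least as high. *HES4* (chr1:934344-935477, minus strand), a related repressor with a single RBPJ core in its window, had 9.84 FPKM in untransfected cells against 9.04 FPKM after *APC* silencing. Its log2 ratio was -0.12 with a counting interval of -0.41 to 0.18. The interval of *HES4* thus included 0 and that of *HES1* did not, and neither gene passed 1.5-fold. The intervals overlapped, and a difference between *HES1* and *HES4* was not tested.

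*HEY1* (chr8:80676245-80680002, minus strand), a hairy-related repressor known for roles in vascular and cardiac development, had 0.121 FPKM in untransfected cells against 0.378 FPKM after *APC* silencing. A single read was worth 0.13 more on the log2 FPKM scale in the anti-*APC* library. With that offset taken off, the ratio of the FPKM values matched 20 reads after silencing to 7 in untransfected cells, which was the only ratio of read numbers up to 40 within 0.0005 on the log2 scale. The log2 ratio was 1.65 with a counting interval of 0.35 to 3.13, so the ratio itself could be from 1.27 to 8.76 by counting error alone. Both values are below 1 FPKM, so *HEY1* is not among the genes counted below. Without a pseudocount, 2.58% of 1552 other genes at a similar level had a log2 ratio at least as high as that of *HEY1*. Adding a pseudocount of 1 FPKM brought the log2 ratio of *HEY1* down to 0.30.

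By a fixed size of 1.5-fold and a mean of at least 1 FPKM, 8 of the 10 genes could be counted, *DLL1* and *HEY1* being below that level. Of these 8, *JAG1* was higher, against 2.56% of all 12063 genes, and *NOTCH2* and *NOTCH3* were lower, against 6.61% of all genes. These are 1 and 2 genes, so the counts are descriptions and set nothing apart. In either direction 3 of the 8 passed, beside 9.17% of all genes. At 2-fold, *JAG1* alone passed, beside 0.953% of all genes higher and 1.37% lower. At a limit of 25% above, or the same fold below, *JAG1*, *NOTCH2* and *NOTCH3* were again the genes that passed, beside 7.17% higher and 18.4% lower. With no minimum level *HEY1* was added to the higher genes, beside 6.65% of 16289 genes higher and 12.8% lower. The lower pair lay at log2 ratios of -0.64 and -0.88, and the next genes inside the limit were *HES1* at 0.29 and *JAG2* at -0.27. The median log2 ratio of the 8 genes was -0.13, beside -0.05 over all 12063 genes.

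**Figure D3:**
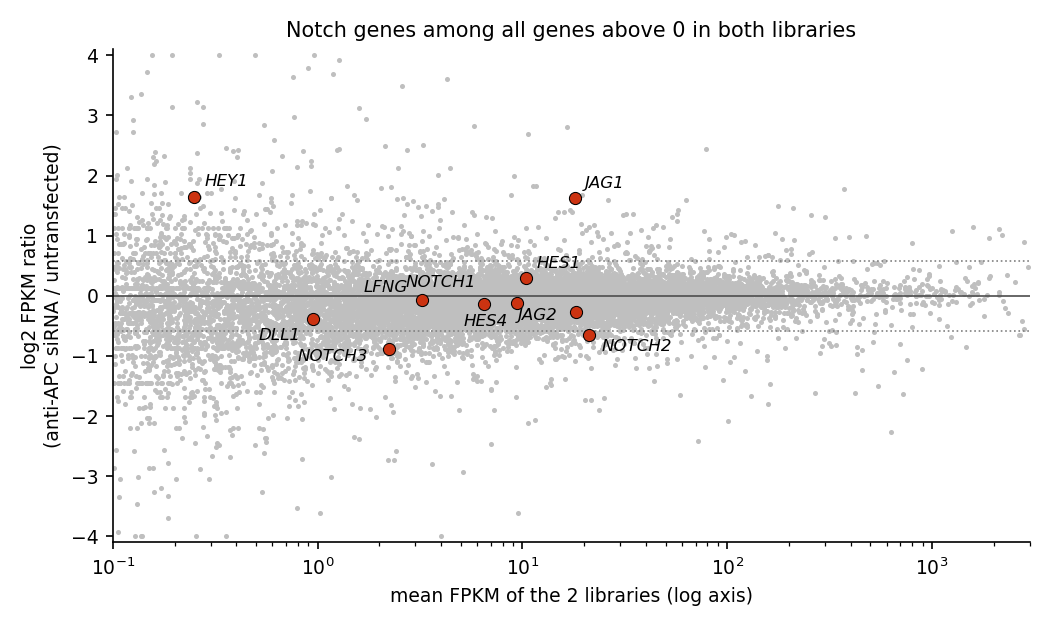
Log2 ratio of FPKM (anti-*APC* over untransfected) against the mean FPKM of both libraries (log axis) for genes from 0.1 to 3000 FPKM (gray), with the 10 Notch genes in red and ratios beyond the axis drawn at its edge. Ratios spread more widely at low levels, where *HEY1* (0.250 FPKM on average) lies, than near *JAG1* (18.0 FPKM on average).

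The make-up of the ligand transcripts was reversed between the libraries. In untransfected cells *JAG2* was 2.26 times *JAG1*, and with anti-*APC* siRNA *JAG1* was 1.64 times *JAG2*. *JAG1* was 29.6% of the summed FPKM of the 3 ligands without and 61.0% with anti-*APC* siRNA, while *JAG2* went from 66.8% to 37.1% and *DLL1* from 3.61% to 1.84%. The 3 ligands summed to 29.7 FPKM in untransfected cells and 44.5 FPKM after silencing, and the 3 receptors summed to 35.5 and 24.3 FPKM. Ligand transcripts were therefore 0.837 of receptor transcripts in untransfected cells and 1.83 times receptor transcripts with anti-*APC* siRNA. Within the receptors *NOTCH2* remained the largest part, at 72.7% without and 68.0% with anti-*APC* siRNA, and *NOTCH1* went from 19.2% to 25.6%. *NOTCH3* was 8.13% and 6.45% of the receptor sum.

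**Figure D4:**
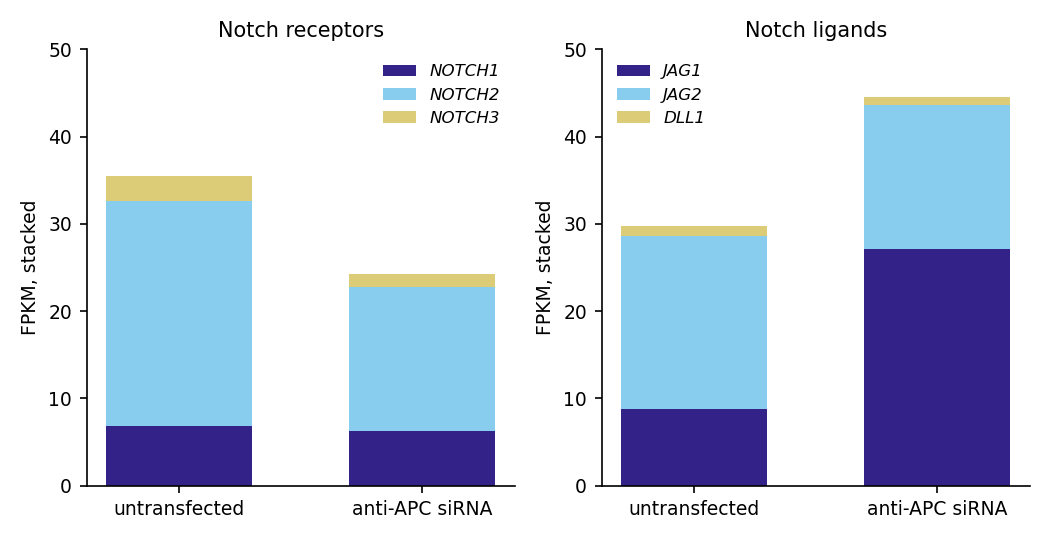
Stacked FPKM of the 3 receptors (left) and the 3 ligands (right) in the untransfected and the anti-*APC* library, 1 library each. The receptor sum went from 35.5 to 24.3 FPKM and the ligand sum from 29.7 to 44.5 FPKM, with *JAG1* as the part that grew.

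Levels of the 10 genes spanned a 213-fold range in untransfected cells and a 71.8-fold range with anti-*APC* siRNA. In untransfected cells the order from the top was *NOTCH2*, *JAG2*, *HES4*, *HES1*, *JAG1*, *NOTCH1*, *LFNG*, *NOTCH3*, *DLL1* and *HEY1*. With anti-*APC* siRNA *JAG1* went from place 5 to place 1, and *HES1* passed *HES4*. The lower 5 genes kept their order in both libraries. *NOTCH2* and *JAG2* stood at the same rounded level of 16.5 FPKM with anti-*APC* siRNA. No replicate spread is available to say which neighbors in this order differ.

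Other genes of the pathway were read from 8 lists of 75 genes, of which 49 had a mean of at least 1 FPKM. Of these 49, *MAML2* and *HES2* were higher and *BHLHE40* and *DTX4* were lower by at least 1.5-fold, which is 4.08% in each direction beside the 2.56% and 6.61% of all genes. Their median log2 ratio was -0.08. *BHLHE40*, a basic helix-loop-helix repressor, had 38.9 FPKM in untransfected cells against 18.7 FPKM after *APC* silencing, a log2 ratio of -1.06 with a counting interval of -1.15 to -0.96. *HES2*, another gene of the HES family, had 3.28 and 2.10 FPKM with and without anti-*APC* siRNA, a log2 ratio of 0.65 with a counting interval of 0.39 to 0.90. *MAML2*, which encodes a coactivator of the Notch and RBPJ complex, had 1.29 and 0.786 FPKM in the same order, a log2 ratio of 0.72 (0.41 to 1.04). *DTX4*, a gene of the Deltex ubiquitin ligase family, likewise had 1.34 and 2.08 FPKM, a log2 ratio of -0.63 (-0.90 to -0.36), and was no longer past 1.5-fold once the median log2 ratio of all genes was set to 0. With a pseudocount of 1 FPKM *BHLHE40* alone of these genes passed.

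Upstream of the targets, *DTX4* and *MAML2* were the counted genes that passed 1.5-fold. All 9 genes of the receptor proteases, comprising *ADAM10*, *ADAM17*, *FURIN* and the γ-secretase subunits, were between log2 ratios of -0.41 and 0.18, with *APH1A* the highest in untransfected cells at 58.8 FPKM and at 54.6 FPKM with anti-*APC* siRNA. The 4 counted glycosyltransferases, led by *POFUT1* (19.2 FPKM after silencing and 21.996 FPKM in untransfected cells), lay between -0.19 and 0.34. Of 9 counted regulators of endocytosis and ubiquitination, *DTX4* alone passed 1.5-fold, and the highest of them, the ubiquitin ligase gene *ITCH*, had 32.3 FPKM after silencing and 31.4 FPKM in untransfected cells. Of 19 counted genes of the nuclear complex and corepressors, *MAML2* alone passed 1.5-fold, and *RBPJ*, the DNA-binding factor of the pathway, had 28.6 FPKM in untransfected cells against 20.3 FPKM after *APC* silencing, a log2 ratio of -0.49. *HDAC1* was the highest of that list at 128 FPKM after silencing and 142 FPKM in untransfected cells.

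Of the remaining genes, values are given with the anti-*APC* library before the untransfected one. The receptor gene *NOTCH4* had 0.102 and 0.0886 FPKM. None of the 5 other ligands reached 1 FPKM, the highest being *DNER* at 0.530 and 0.425 FPKM, and *DLL3*, *DLK1* and *DLK2* were listed at 0 in both libraries. In the list of other HES and HEY family genes and possible targets, 6 of 12 were counted, with *CDKN1A* the highest at 65.1 and 67.9 FPKM. Whether the genes of this list respond to Notch in these cells was not tested. The Notch feedback gene *NRARP* had 6.05 and 5.15 FPKM, a log2 ratio of 0.23. Of 8 secretory lineage genes only *GFI1* was counted, at 1.93 and 2.81 FPKM, a log2 ratio of -0.55. *ATOH1*, the gene that HES1 represses, was at 0.0460 and 0.0420 FPKM, and 3 of the 8 were listed at 0 in both libraries. A listed 0 can be a failed estimate in this table, since all 269 rows marked as failed are at 0, *DLK2* among them.

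**Figure D5:**
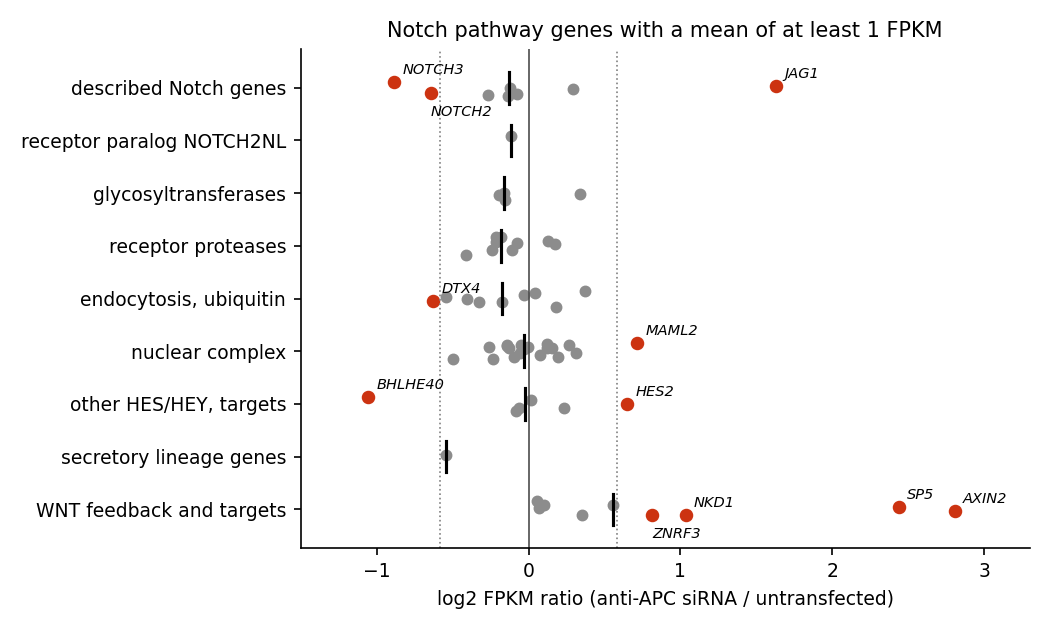
Log2 ratio of FPKM (anti-*APC* over untransfected) of counted genes in each list (points, jittered vertically), with the list median as a black bar, dotted lines at 1.5-fold and genes past it in red with their names. Of the 49 counted pathway genes 45 lie between the dotted lines. *JAG1* is at 1.63 in the row of described Notch genes, and the row of WNT feedback and target genes runs from 0.06 to 2.81.

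The ratio of *JAG1* was set beside those of 14 WNT feedback and target genes. Of the 9 of these with a mean of at least 1 FPKM, 4 were higher by at least 1.5-fold and none was lower, beside 2.56% and 6.61% of all genes, and the median log2 ratio was 0.55. The authors had already reported *AXIN2*, *SP5* and *ZNRF3* as altered after *APC* silencing in these cells. The count was thus partly set by the choice of list and is a description only. The most abundant of the list, the cyclin gene *CCND1*, had 246 FPKM in untransfected cells against 315 FPKM after *APC* silencing and did not pass 1.5-fold. *JAG1* at 1.63 lay below *AXIN2* at 2.81 and *SP5* at 2.44, and above *NKD1* at 1.04 and *ZNRF3* at 0.81. *MYC* and *DKK1* lay near 0, at 0.06 and 0.07.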

How the data were processed

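RNA from HCT-116 cells was sequenced as single-read TruSeq libraries, 1 library per condition. Cufflinks and Cuffdiff were run by the authors, and the submitters' processing notes name hg19. Versions, aligner and annotation are not given in the sources used here. The authors deposited FPKM values, 1 column each for silenced and untransfected cells, in 23131 rows. The table also holds the authors' fold changes, test statistics, *p*-values and *q*-values, which were not used, and the library from scrambled siRNA is not analysed here.

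Log2 ratios of FPKM were computed without a pseudocount. A gene was counted at 1.5-fold or more with a mean of at least 1 FPKM and values above 0 in both libraries. This size rule stands in for a test. Low rows gave the depth: 61.8% of 2114 ratios matched whole reads (numbers up to 10, tolerance 0.002 on the log2 scale), where such matches cover 3.87% of the range, and 51 rows with 1 annotated transcript gave the reads. Coordinates and lengths are those of canonical GENCODE 44 transcripts on GRCh37. The genes and lists were chosen with earlier results of these data known. Named genes are the 10 Notch genes, *APC*, their partners or overlapping genes, up to 10 list genes past 1.5-fold, and the highest gene of each list with a counted gene, with *DNER* for the other ligands. No list gene was missing, *EOGT* and *NEURL1* being matched through older symbols. Further genes (*RBPJ*, *NRARP*, *ATOH1*, *NOTCH4*, *MYC*, *DKK1*, the ligands at 0 and the markers) were named after their values were seen. Alternatives were other folds, pseudocounts, level minimums and scalings. The scripts were tested on simulated data. Software comprised scipy 1.17.1, numpy 2.4.6, matplotlib 3.10.9 and pandas 2.3.3 under Python 3.11.15.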

Additional observations from a re-analysis of the deposited data

How the results depend on the processing

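With 1 library per condition, no replicate could be left out and no difference has a replicate check, so every ratio rests on both libraries. No paired analysis was possible because each condition has 1 library and no result comes from a test. Scrambled siRNA as the control was not run. In 41 recomputed ratios of the 10 genes none changed sign, which is no check of the sign. A pseudocount added to both values cannot change it. The scalings removed offsets of -0.05 and -0.04, smaller in size than the ratio nearest 0 (*LFNG* at -0.07). Of the 41 ratios, 37 stayed within the counting interval. The exceptions were a pseudocount of 1 FPKM, which gave 1.52 for *JAG1*, -0.60 for *NOTCH3* and 0.30 for *HEY1*, and the addition of *NOTCH2NL* reads, which gave -0.57 for *NOTCH2*. *JAG1* passed the size limit under all 9 other settings of the count.

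At 2-fold, 0 of the 10 genes were lower, 0 pathway genes were higher and 1 was lower, beside 0.953% and 1.37% of all genes. At a limit of 25% above, or the same fold below, 4 pathway genes were higher and 8 lower, beside 7.17% and 18.4% of all genes. With a pseudocount of 1 FPKM, 0 pathway genes were higher and 1 lower (*BHLHE40*), beside 1.88% of all genes higher and 3.71% lower. With no minimum level, 2 of the 10 genes were higher (*JAG1* and *HEY1*), 5 pathway genes were higher and 6 lower, beside 6.65% and 12.8% of all genes. With a mean of at least 5 FPKM, 1 of the 10 genes was lower (*NOTCH2*), 0 pathway genes were higher and 1 lower, beside 2.02% of all genes higher and 3.77% lower. With the median log2 ratio set to 0, 1 pathway gene was lower (*BHLHE40*, without *DTX4*) and 2 were higher, beside 5.40% of all genes lower and 2.93% higher. A stricter minimum leaves fewer genes to count, and the cause of the other shifts was not tested.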
